A study of Mus musculus with 6 samples.

Results

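The genes described here are the switch genes of glycolysis: the bifunctional 6-phosphofructo-2-kinase/fructose-2,6-bisphosphatases Pfkfb1, Pfkfb2, Pfkfb3 and Pfkfb4, the hexokinases Hk1, Hk2 and Hk3, and the liver and red blood cell pyruvate kinase Pklr. Members were the target rows whose description on the array named one of these enzymes, and all of these rows were kept. The genes were chosen with earlier results of these data known. The rule gave 18 target rows of 8 genes, of 44170 rows joined into 37476 genes in all. Livers came from male wild-type C57 BL/6 mice aged 9 to 10 weeks, each hybridised to its own NimbleGen single-colour array. The LPS group (n = 3) received 0.01 µg of lipopolysaccharide, a bacterial cell wall component, and the LPS/GalN group (n = 3) received that dose plus 20 mg of D-galactosamine (GalN), an amino sugar that depletes uridine nucleotides in hepatocytes. Tissue was taken after 2.5 h in both groups. All 6 mice had therefore received LPS, and untreated mice or mice given GalN alone were not analysed here.

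Glycolysis is controlled at the steps that commit glucose to breakdown. Hexokinases phosphorylate glucose on entry, and Hk1, Hk2 and Hk3 are forms with a high affinity for glucose. The PFKFB enzymes make and degrade fructose 2,6-bisphosphate, a potent activator of phosphofructokinase. Pfkfb1 is the main liver form, Pfkfb2 was first described in heart, Pfkfb4 in testis, and Pfkfb3, whose kinase activity far exceeds its phosphatase activity, is induced by hypoxia and by inflammatory signals. Pklr makes the last step, from phosphoenolpyruvate to pyruvate, in hepatocytes.

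Because Pfkfb3 carried the only difference past the threshold and Hk2 lay closest to it, the promoter stretches of these genes are shown first. Both are textbook targets of hypoxia-inducible factor, whose core site is ACGTG or GCGTG. The 250 bases before the start of transcription were read from RefSeq entries on GRCm38.p6, a different build from the mm9 coordinates of the array, and no coordinates were converted. Pfkfb3 had 2 entries with different starts. Matches to ACGTG or GCGTG on either strand are in capitals, and the second Pfkfb3 entry also holds CACGTG, the palindromic E-box, which overlaps ACGTG on both strands.
Pfkfb3 upstream entry, chr2:11553930-11554179, minus strand: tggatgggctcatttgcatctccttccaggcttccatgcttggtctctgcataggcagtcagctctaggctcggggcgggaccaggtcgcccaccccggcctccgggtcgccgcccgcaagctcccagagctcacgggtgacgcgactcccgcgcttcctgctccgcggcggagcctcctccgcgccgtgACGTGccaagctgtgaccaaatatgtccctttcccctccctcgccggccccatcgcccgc
Pfkfb3 downstream entry, chr2:11502091-11502340, minus strand: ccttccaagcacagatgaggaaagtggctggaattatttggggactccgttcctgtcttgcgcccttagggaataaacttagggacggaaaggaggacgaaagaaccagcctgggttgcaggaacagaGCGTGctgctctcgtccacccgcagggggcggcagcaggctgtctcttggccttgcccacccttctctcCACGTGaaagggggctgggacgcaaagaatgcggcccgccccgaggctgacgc
Hk2, chr6:82774455-82774704, minus strand: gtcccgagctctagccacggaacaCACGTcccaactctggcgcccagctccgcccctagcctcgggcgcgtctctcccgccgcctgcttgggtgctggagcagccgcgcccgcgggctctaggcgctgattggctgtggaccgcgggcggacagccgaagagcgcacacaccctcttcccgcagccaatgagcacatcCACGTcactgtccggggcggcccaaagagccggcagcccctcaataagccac
Entries were found for all 8 genes, 16 in all. Of these, 10 held ACGTG or GCGTG, as did 38.6% of the 32851 RefSeq promoters of that length. Besides Pfkfb3, entries of Hk2, Pfkfb1, Pfkfb2, Pfkfb4, Hk1 and Hk3 held a match, and none of these other genes passed the threshold. The Pklr entries held none. CACGTG was also in an entry of Pfkfb2, so these motifs do not set apart the genes shown. By motif, ACGTG was in 16.6%, GCGTG in 28.2% and CACGTG in 6.02% of all promoters. The capitals mark letters that match, and binding was not measured.

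The comparison asked how the transcripts of these enzymes differed when GalN accompanied LPS. Pfkfb3 fell steeply, on all 3 of its rows, and none of the other 7 genes passed the test. Differences are LPS/GalN minus LPS in log2 of the RMA intensity, with the standard error of the limma fit over all rows. The threshold was a Benjamini-Hochberg adjusted p under 0.05. Lower past it were 3 of 18 member rows, against 3.13% of all rows, and 0 were higher, against 0.654%; by limma at an unadjusted p under 0.05, 8 of the 18 rows passed, 5 of them not past the adjusted threshold, against 17.5% of all rows. The median difference was -0.60 over the 18 rows and -0.36 over the 15 rows of the other genes, against 0.05 over all rows. Groups did not overlap for 10 member rows, 6 lower (11.1% of all rows were) and 4 higher (12.9% were). Rows of a gene share its transcript and are not independent. The genes were chosen with earlier results of these data known, so the counts beside all rows are descriptions.

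**Figure D1:**
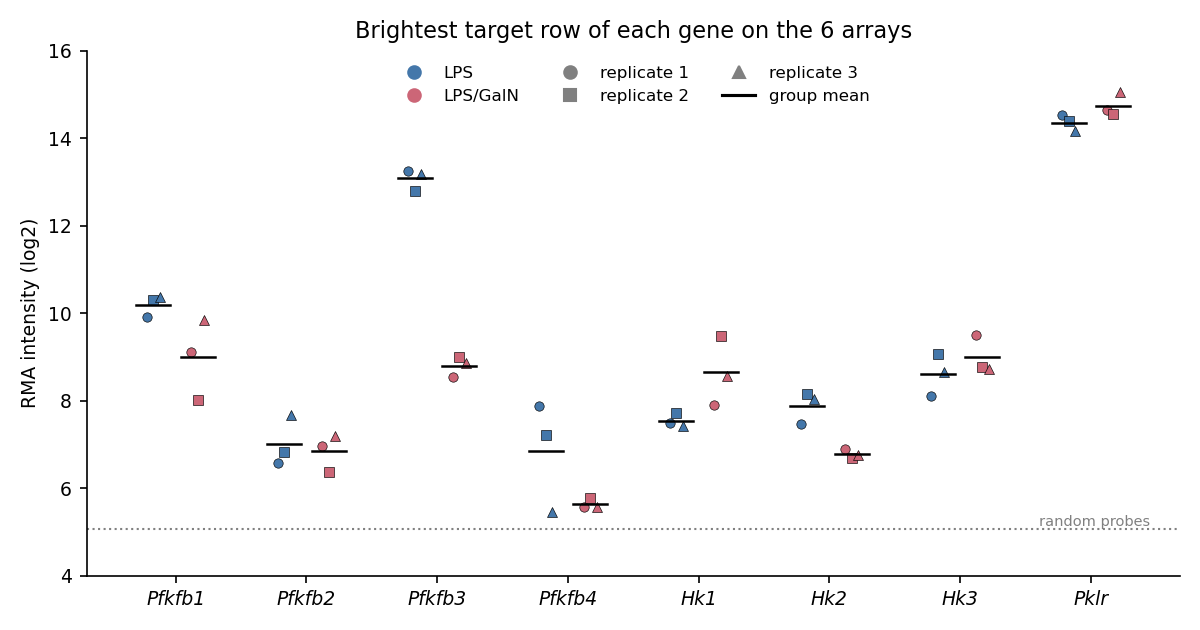
Log2 RMA intensity of the brightest row of each of the 8 genes on the 6 arrays, with a bar at each group mean and a dotted line at the mean level of random probes. The Pfkfb3 difference is -4.28 in log2, while Pfkfb4 is raised on LPS replicates 1 and 2 but not on LPS replicate 3.

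Pfkfb3 was measured by 3 rows that passed. They are described on mm9 as chr2:11393061-11423694 (AK154607), chr2:11393061-11475703 (AK143330) and chr2:11396019-11423694 (EU034675). The brightest row, AK154607, read 13.26, 12.79 and 13.19 in log2 on the LPS arrays and 8.54, 9.00 and 8.86 on the LPS/GalN arrays. In linear RMA intensity this is 7100 to 9780 against 371 to 514, while random probes read 31.3 to 34.7. Every LPS array lay far above every LPS/GalN array, and the gene remained well above the random probes with GalN. The log2 difference was -4.28 ± 0.25 (SE, n = 3 and 3; limma adjusted p = 0.000214), a 19.4-fold lower level with a 95% interval of 13.1 to 28.7.

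Row AK143330 read 11.35, 11.15 and 11.73 against 7.86, 8.17 and 7.93. Its difference was -3.42 ± 0.24 (limma adjusted p = 0.000416), or 10.7-fold. Row EU034675 read 11.76, 11.55 and 11.56 against 7.51, 7.80 and 7.99. Its difference was -3.86 ± 0.23 (limma adjusted p = 0.000227), or 14.5-fold. Thus all 3 rows gave falls between 10.7-fold and 19.4-fold, and no array of one group reached the other. Among all 44170 rows, AK154607 ranked 20 by p and 47 by the size of the fall.

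A pair of rows at the same locus carry the name of an inducible 6-phosphofructo-2-kinase homolog and so fell outside the rule. AK077210 (chr2:11393454-11420012) read 11.90, 11.42 and 11.80 against 7.28, 7.95 and 7.75 and fell by 4.05 ± 0.27 (limma adjusted p = 0.000316). AK054285 (chr2:11401526-11423694) read 8.86, 8.29 and 8.36 against 6.86, 7.86 and 7.20. Its difference of -1.20 ± 0.31 missed the threshold (limma adjusted p = 0.0894), although its groups did not overlap. The files give the extent of each target and not its probe positions, so which exons each row reads is unknown.

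**Figure D2:**
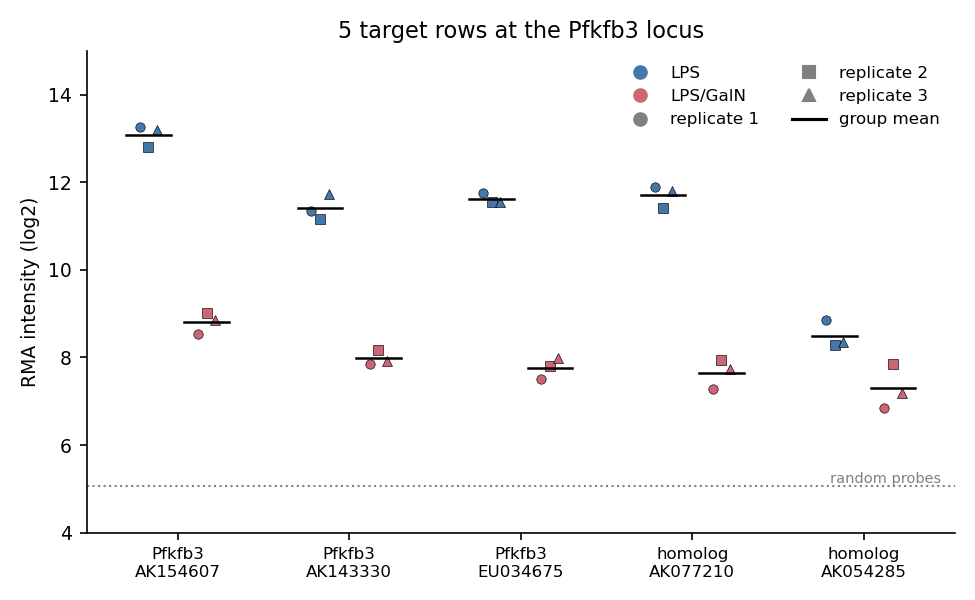
Log2 RMA intensity on the 6 arrays for the 3 Pfkfb3 rows and the 2 rows named as a homolog at the same locus, with bars at group means and a dotted line at the mean of random probes. In 4 of the 5 rows the differences lie between -4.28 and -3.42; that of AK054285 is -1.20.

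The Pfkfb3 fall did not turn on any single array. With each of the 6 arrays left out in turn, the AK154607 difference lay between -4.42 and -4.15 and the limma adjusted p between 0.000901 and 0.0029. Markers of other tissues were uneven over the arrays. The summed intensity of 8 intestine markers was 2160 to 25400 on LPS arrays and 1750 to 2040 on LPS/GalN arrays, high on LPS replicates 1 and 2. That of 10 thymus and T cell markers was 510 to 753 on LPS arrays and 516 to 13200 on LPS/GalN arrays, high on LPS/GalN replicates 2 and 3. Pfkfb3 was as high on LPS replicate 3, at 13.19, as on LPS replicates 1 and 2, and as low on LPS/GalN replicate 1 as on replicates 2 and 3. Without LPS replicates 1 and 2 the difference was -4.39, with 1 LPS array left and 0 of all rows past the threshold (limma adjusted p = 0.0501 for AK154607). Without LPS/GalN replicates 2 and 3 it was -4.54 (limma adjusted p = 0.017), with 1 LPS/GalN array left. In both fits the lone array is assumed to vary like the arrays of the other group.

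Pfkfb3 is made by myeloid and endothelial cells as well as hepatocytes, and bulk liver cannot tell fewer cells of a type from less RNA per cell. Of 12 macrophage markers, 0 passed the threshold and the median difference was 0.83, with a summed intensity of 11800 to 17400 in LPS and 24100 to 26800 in LPS/GalN. Of 7 endothelial markers, Pecam1, Egfl7 and Tie1 rose (by 1.39, 1.81 and 1.07) and 0 fell, with sums of 4980 to 7730 and 9720 to 12300. None of these 3 calls held without LPS replicate 1, LPS replicate 2 or LPS/GalN replicate 2 (limma adjusted p up to 0.0685, 0.152 and 0.165), and Egfl7 and Tie1 were lost without other arrays too. Of 12 neutrophil markers, S100a8 and S100a9 fell by 1.65 and 1.55 and 0 rose, with a median difference of -0.49 and sums of 3410 to 4960 and 1530 to 2800. The S100a8 and S100a9 calls were lost without LPS replicate 2 or LPS/GalN replicate 2, and that of S100a9 also without LPS/GalN replicate 3 (limma adjusted p up to 0.063 and 0.0651). The 8 hepatocyte markers were above the random probes on every array, none passed, and their sums were 290000 to 324000 and 288000 to 297000. The part of these cell types in the Pfkfb3 fall was not tested.

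The other PFKFB genes were lower on average with GalN but did not pass. Pfkfb1, the liver form (chrX:147024478-147078274), had 1 row, at 9.90, 10.31 and 10.37 on the LPS arrays and 9.12, 8.02 and 9.85 on the LPS/GalN arrays. Its groups did not overlap, but the LPS/GalN arrays spread widely, from 260 to 923 in linear intensity. The difference was -1.20 ± 0.44 (limma adjusted p = 0.203), with a 95% interval from -2.20 to -0.20. Leaving out LPS/GalN replicate 2 gave -0.71, and leaving out LPS/GalN replicate 3 gave -1.63.

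Pfkfb2, the heart form (chr1, between 132566785 and 132625830), had 4 rows with differences from -0.74 to -0.17. Its brightest row, AK029659, read 6.57, 6.82 and 7.67 against 6.97, 6.37 and 7.20, and the groups overlapped. The row with the largest difference, AK016729, read 5.71, 5.62 and 6.63 against 5.20, 5.21 and 5.33. Its difference was -0.74 ± 0.31 (limma adjusted p = 0.26), close to the level of random probes.

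Pfkfb4, the testis form (chr9, between 108893946 and 108934739), had 3 rows. The brightest, DQ350638, read 7.88, 7.21 and 5.46 on the LPS arrays and 5.58, 5.77 and 5.58 on the LPS/GalN arrays. Only LPS replicates 1 and 2 were high; LPS replicate 3 lay below all LPS/GalN arrays. The other rows had the same shape, with 7.80, 7.22 and 4.97 on LPS arrays for AY756066 and 6.30, 7.32 and 4.96 for BC057594. The 3 differences were -1.20, -1.04 and -0.74, with limma adjusted p of 0.307, 0.473 and 0.548. Without LPS replicate 3, DQ350638 and AY756066 passed, at -1.90 and -1.89 (limma adjusted p = 0.0173 and 0.031). Without LPS replicates 1 and 2, the arrays high in intestine markers, the 3 differences were 0.19, 0.65 and 0.49. In linear intensity LPS replicate 3 read 43.9, 31.5 and 31.1 on these rows, where its random probes read 32.6. The LPS/GalN arrays read 32.9 to 62.6. The order of LPS replicate 3 and the LPS/GalN arrays therefore rests on values near the random probes.

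**Figure D3:**
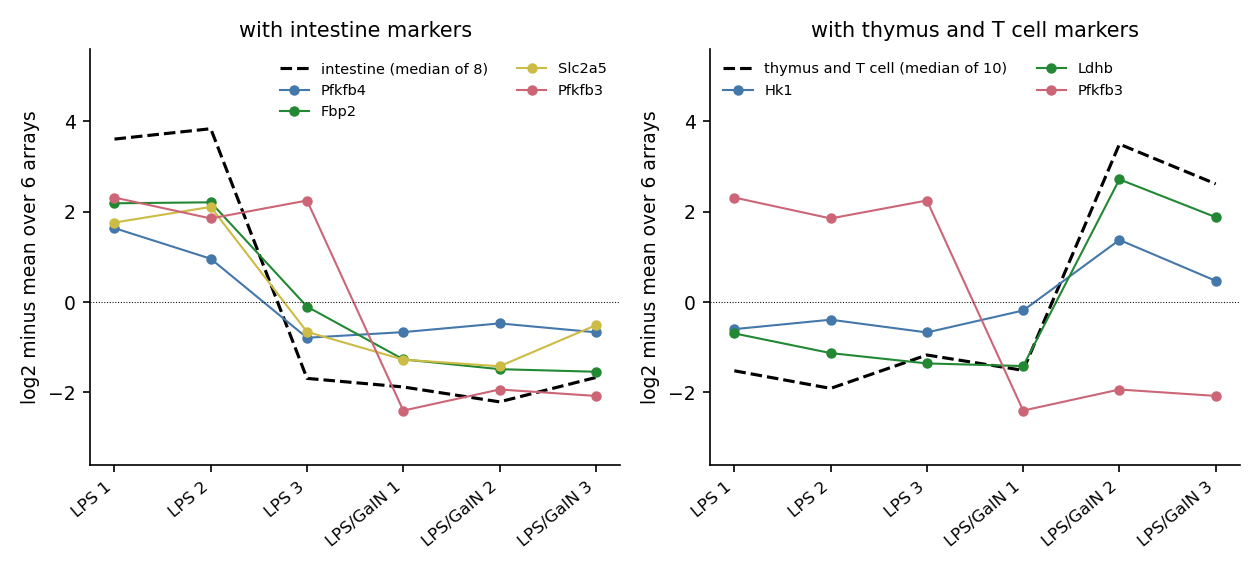
Log2 RMA intensity of single genes (brightest row) and the median log2 of marker lists, each minus its mean over the 6 arrays, by array. At left Pfkfb4, Fbp2 and Slc2a5 are highest on LPS replicates 1 and 2, as 8 intestine markers are; at right Hk1 and Ldhb are highest on LPS/GalN replicates 2 and 3, as 10 thymus and T cell markers are, while Pfkfb3 follows neither.

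Among hexokinases, the difference of Hk2, the insulin- and hypoxia-responsive form of muscle and fat, just missed the threshold. Its single row (chr6:82675020-82724367) read 7.47, 8.14 and 8.03 on the LPS arrays and 6.90, 6.69 and 6.76 on the LPS/GalN arrays. The groups did not overlap, and the difference was -1.10 ± 0.25 (limma adjusted p = 0.0566), or 2.14-fold with a 95% interval of 1.43 to 3.20. Hk2 passed in 2 of 16 alternative analyses: with 32 added to the intensity (limma adjusted p = 0.0305) and with only the 18076 rows of the authors' value table (limma adjusted p = 0.0183).

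Hk1, the form of most tissues including lymphocytes (chr10, between 61732609 and 61805456), had 2 rows that differed in sign. AK167468 read 7.50, 7.71 and 7.43 against 7.91, 9.47 and 8.57. The groups did not overlap, and the 2 highest arrays were the LPS/GalN replicates with high thymus and T cell markers. The difference was 1.11 ± 0.38 (limma adjusted p = 0.18), and it was 0.70 without LPS/GalN replicate 2 and 0.37 with LPS/GalN replicate 1 alone in its group. The dim row AK165237 read 5.87, 5.47 and 5.48 against 5.67, 5.42 and 4.64, a difference of -0.36 ± 0.31 (limma adjusted p = 0.606).

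Hk3, the hexokinase of myeloid cells (chr13, between 55107346 and 55122695), had 2 rows above 0 that both missed the threshold. AK170813 read 5.30, 5.28 and 6.01 against 6.11, 6.67 and 6.77, without overlap, a difference of 0.99 ± 0.30 (limma adjusted p = 0.133). BC117860, the brighter row, read 8.10, 9.08 and 8.67 against 9.50, 8.77 and 8.73 and overlapped, a difference of 0.38 ± 0.33 (limma adjusted p = 0.615). Leaving out LPS replicate 1 gave 0.125 and leaving out LPS/GalN replicate 1 gave 0.131, while leaving out LPS replicate 2 gave 0.612. Macrophage marker sums were higher on all LPS/GalN arrays as well; their part in these values was not tested.

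Rows that the rule left out because they name other sugar kinases were read beside these. Hkdc1, a hexokinase domain protein, read 9.01, 8.60 and 5.74 against 6.46, 5.31 and 5.64, again high on LPS replicates 1 and 2 (-1.98 ± 0.79, limma adjusted p = 0.245). Khk, which phosphorylates fructose, differed by 0.09 ± 0.22 (limma adjusted p = 0.88).

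Pklr (chr3, between 88940079 and 88950516) had 2 rows, both slightly higher on every LPS/GalN array and neither past the threshold. BC152327 read 14.53, 14.38 and 14.16 against 14.64, 14.56 and 15.05, a difference of 0.39 ± 0.24 (limma adjusted p = 0.459). NM_001099779 read 13.32, 13.48 and 13.33 against 13.78, 13.54 and 14.03, a difference of 0.41 ± 0.23 (limma adjusted p = 0.411). The highest row of an array reached a log2 of 15.8 to 15.9, so the brighter row had limited room above it. The dimmer row differed by a similar amount, and whether the difference of the brighter row is understated was not tested.

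**Figure D4:**
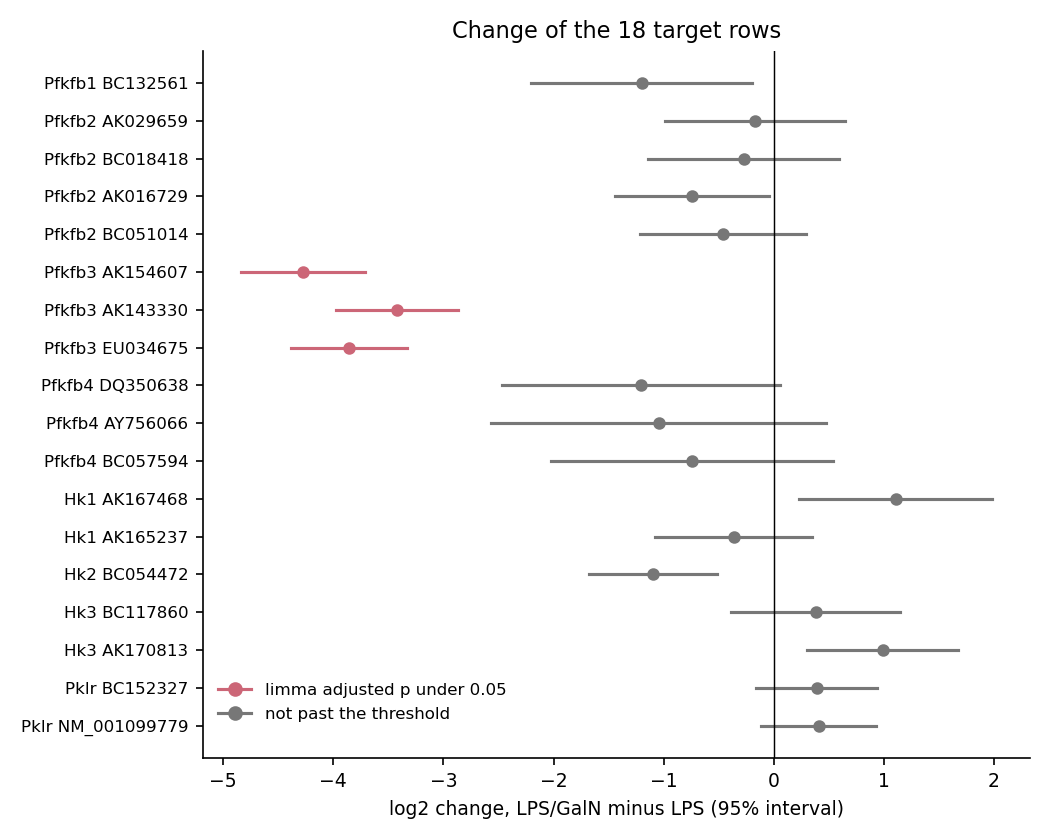
Log2 difference, LPS/GalN minus LPS, of each of the 18 member rows with its 95% interval from limma. The 3 Pfkfb3 rows lie between -4.28 and -3.42; the other 15 lie between -1.20 and 1.11.

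Related enzymes were also compared within arrays, as the log2 difference between 2 brightest rows. Probes differ in efficiency, so only the change of this difference between groups is read. With 3 arrays against 3, an exact two-sided permutation test cannot go below p = 0.1. Pfkfb3 shifted against Pfkfb1 by -3.08 (exact permutation p = 0.1, adjusted over 4 pairs 0.2). Hk1 shifted against Hk2 by 2.21 (exact permutation p = 0.1, adjusted 0.2). The Hk1 shift ran from 1.75 without LPS/GalN replicate 2 to 2.64 without LPS/GalN replicate 1. With the mean over all rows of each gene it was 1.47. In both pairs the groups did not overlap, and the design allows no smaller p. Pfkfb4 against Pfkfb2 gave -1.03 (exact permutation p = 0.4, adjusted 0.533), from -0.29 without LPS replicate 1 to -2.06 without LPS replicate 3. Pklr against Pkm2, the pyruvate kinase of most other cells, gave 0.32 (exact permutation p = 0.6, adjusted 0.6), and -0.06 without LPS replicate 2.

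The genes whose pattern over the 6 arrays was most like that of Pfkfb3 (AK154607) were taken from 11367 named genes brighter than the median row. They were tap binding protein-like (Pearson's r = 0.9997), inducible nitric oxide synthase 2 (nitric oxide synthase 2, inducible, macrophage; 0.9992), promyelocytic leukemia (0.9982), interferon regulatory factor 2 (0.9979) and jun-b oncogene (0.9977). The arrays form 2 groups, so r is high for any gene with far-apart groups and little spread, and no test was made. Nitric oxide synthase 2, which makes nitric oxide in activated macrophages, differed by -3.43 ± 0.25; these genes were chosen for this pattern, so the value is a description.

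The rest of the pathway was read from lists of glycolytic enzymes, enzymes of glucose production, transporters, pyruvate enzymes, regulators and hypoxia targets. One row, the brightest, was used per gene; over all genes 0.656% were called higher and 3.09% lower. Of 75 genes measured, 2 rose and 4 fell, with a median difference of 0.12 against 0.05 for all genes. By limma at an unadjusted p under 0.05, 20 of the 75 passed, against 17.6% of all genes. These were 5 of 18 glycolytic enzymes, 3 of 8 enzymes of glucose production and 1 of 10 transporters. The rest were 0 of 11 pyruvate enzymes, 7 of 16 regulators and 4 of 12 hypoxia targets.

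Of 18 enzymes of glycolysis, 1 rose, 1 fell and 16 did not pass, with a median difference of 0.29. Pgam2, the muscle phosphoglycerate mutase, read 7.90, 7.23 and 7.62 against 5.14, 6.10 and 5.23. It fell by 2.09 ± 0.32 (limma adjusted p = 0.01, and 0.0518 without LPS replicate 1). On LPS/GalN replicates 1 and 3 it lay close to the random probes, and the authors' value table did not hold this row. Whether the size of the fall is understated was not tested. Pfkm, the muscle subunit of phosphofructokinase, read 8.68, 8.84 and 9.03 against 9.63, 10.15 and 10.07 and rose by 1.10 ± 0.24 (limma adjusted p = 0.0493). That call held without LPS/GalN replicate 1 and was lost without any other single array (limma adjusted p = 0.0768 to 0.177). It was also lost with arrays centred on their medians (limma adjusted p = 0.0552), with 1 row per gene (0.0503) and with replicate number as a block (0.0875).

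Ldha, which turns pyruvate into lactate, read 14.90, 14.95 and 15.07 against 14.18, 14.26 and 14.13, a difference of -0.78 ± 0.20 that missed the threshold (limma adjusted p = 0.0896). Pfkl, the liver subunit of phosphofructokinase, read 10.79, 11.13 and 10.99 against 11.54, 11.55 and 11.64, a difference of 0.61 ± 0.21 (limma adjusted p = 0.189). In each the groups did not overlap. Both passed with trend and robust fitting (limma adjusted p = 1.06e-05 for Ldha and 0.0183 for Pfkl), and Ldha also with 32 added to the intensity (0.018) and with the rows of the authors' value table (0.0171). Gapdh, which read close to the highest values on the arrays, differed by 0.21.

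Of 8 enzymes of glucose production, 1 rose and 1 fell. G6pc, the glucose-6-phosphatase that releases free glucose, read 7.85, 8.06 and 11.26 against 13.03, 13.11 and 12.93. It was lowest on LPS replicates 1 and 2, where intestine markers were high, and rose by 3.96 ± 0.80 (limma adjusted p = 0.0354). Fbp2, the muscle fructose-bisphosphatase, read 9.54, 9.56 and 7.25 against 6.09, 5.87 and 5.81 and fell by 2.87 ± 0.58 (limma adjusted p = 0.0346). It was highest on those same arrays. Without LPS replicates 1 and 2 the differences were 1.76 (G6pc) and -1.33 (Fbp2). That fit left 1 LPS array, so only the size of the differences is read. Both calls held without LPS replicate 3 and were lost without any other single array, at limma adjusted p of 0.0644 to 0.124 for G6pc and 0.0566 to 0.127 for Fbp2. The G6pc call was also lost with trend and robust fitting (limma adjusted p = 0.151) and with replicate number as a block (0.0508). Fbp1, the liver form, differed by -0.10. Pck1, the cytosolic phosphoenolpyruvate carboxykinase, had 2 rows that did not move alike. Its brightest row differed by -0.01, while the dimmer row AK080261 read 8.93, 8.24 and 9.26 against 7.57, 5.67 and 5.53 and fell by 2.55 ± 0.55 (limma adjusted p = 0.0442). That call held without LPS/GalN replicate 1 and was lost without any other single array (limma adjusted p up to 0.152). It was also lost with the quantile normalization repeated (limma adjusted p = 0.0563) and with replicate number as a block (0.0522). Pck2, the mitochondrial phosphoenolpyruvate carboxykinase, differed by 0.93 ± 0.27 and G6pc3 by 0.60 ± 0.42 (limma adjusted p = 0.123 and 0.521). Pck2 passed with trend and robust fitting (limma adjusted p = 0.0365) and with the rows of the authors' value table (0.0489). The 3 rows of Pck2 did not move alike: they differed by -0.59 to 0.93. The brightest, used here, was the highest, and 0 passed in the main fit.

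None of the 10 sugar and lactate transporters or the 11 enzymes of pyruvate fate passed by limma. At an unadjusted limma p under 0.05 there were 1 and 0, against 17.6% of all genes. Slc2a5, the fructose transporter, read 8.62, 8.97 and 6.20 against 5.58, 5.44 and 6.35 (-2.14 ± 0.67, limma adjusted p = 0.147; 0.00564 without LPS replicate 3). Slc2a8 differed by 0.51 ± 0.24 (limma adjusted p = 0.337). Slc2a1 and Slc2a2, the glucose transporters of most cells and of hepatocytes, differed by -0.17 and 0.10. Pdk1, a kinase that inhibits pyruvate dehydrogenase, differed by 0.61 ± 0.37 and Mpc2, a subunit of the mitochondrial pyruvate carrier, by 0.35 ± 0.22 (limma adjusted p = 0.452 and 0.47).

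Of 16 regulators, Myc fell and 15 did not pass. Myc, a transcription factor for many glycolytic genes, read 9.52, 9.64 and 9.35 against 7.92, 8.62 and 8.16 and fell by 1.27 ± 0.25 (limma adjusted p = 0.0336). The call held without LPS/GalN replicate 2 and was lost without any other single array (limma adjusted p = 0.0617 to 0.127). With replicate number as a block it was lost too (limma adjusted p = 0.0671). Hif1a, the oxygen-sensitive subunit of hypoxia-inducible factor, read 10.14, 10.18 and 9.72 against 8.74, 8.13 and 9.29, a difference of -1.29 ± 0.33 that missed the threshold (limma adjusted p = 0.0803). It passed with trend and robust fitting (limma adjusted p = 0.00478), with 32 added (0.0437) and with the rows of the authors' value table (0.0368). Foxo1, an insulin-restrained factor that drives G6pc, read 11.026, 10.996 and 11.426 against 10.52, 10.41 and 10.37, a difference of -0.72 ± 0.23 (limma adjusted p = 0.145; 0.0123 with trend and robust fitting and 0.0425 with the rows of the authors' value table). Mlxipl, the carbohydrate-response factor that drives Pklr, differed by 0.76 without passing.

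Of 12 hypoxia targets outside glycolysis, 1 fell and 0 rose, with a median difference of 0.15. Adm, the vasodilator adrenomedullin, read 11.44, 11.16 and 11.07 against 7.83, 7.32 and 6.22 and fell by 4.10 ± 0.40 (limma adjusted p = 0.00141). The call held without each single array. Egln1, an oxygen-sensing prolyl hydroxylase, differed by 1.04 ± 0.30 and Vegfa by -0.69 ± 0.24 (limma adjusted p = 0.119 and 0.189). Vegfa passed with trend and robust fitting (limma adjusted p = 0.022). The rest of the list ran from -1.14 (Car9) to 0.715 (P4ha1) and did not pass in the main fit. Among these, Bnip3, Ndrg1 and Ankrd37 differed by -0.04, 0.32 and 0.26. Ankrd37 was above the random probes on only 1 LPS array and 2 LPS/GalN arrays.

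**Figure D5:**
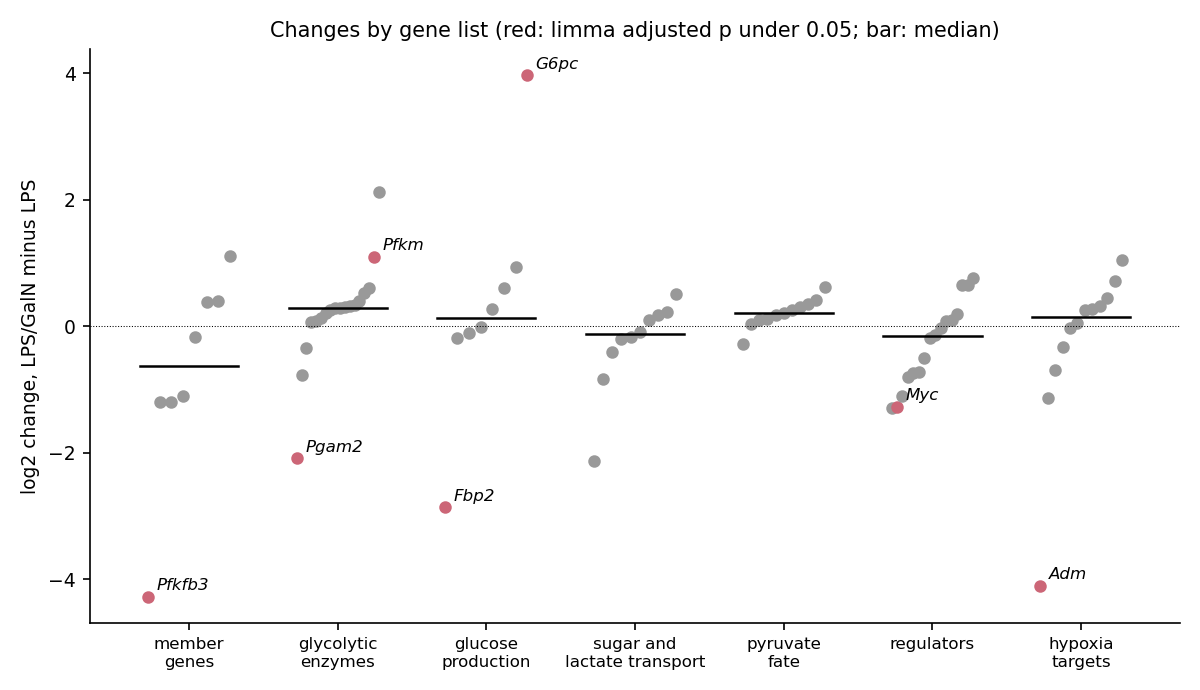
Log2 difference, LPS/GalN minus LPS, of the brightest row of each member gene and of each gene in 6 lists, with genes past a limma adjusted p under 0.05 in red and named, and a bar at each median. Pfkfb3 is the member in red, at -4.28, while the median of 18 glycolytic enzymes is 0.29.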

How the data were processed

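Liver RNA of 6 mice was measured on 6 arrays, with groups and replicate numbers from the labels; the replicates were separate treatments. The authors deposited RMA intensity on a linear scale, as the file headers and processing notes state; RMA corrects background, normalizes between arrays and summarises probes. Version and settings of RMA: not given in the sources used here. Of 44170 rows, 44155 came from 3 probes, per the file headers. A row of 5000 random probes gave the background.

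Intensities were taken to log2 and fitted with limma 3.58.1 in R 4.3.3 (group as the only term, no filter, 4.09 prior degrees of freedom, two-sided), with Benjamini-Hochberg adjustment over all rows. The script was tested on simulated data. The deposited value table, also intensity, held the 18076 rows with at least 50 on every array. All 18 member rows were kept, and for lists the brightest row stood for a gene. Symbols were assigned to 8462 rows from descriptions, RefSeq identifiers and a hand-made table; Pdp2, Irs2 and Prkaa2 were not matched to a row. Some items of the member rule and the lists are not reported here and enter no count of members or list genes. A row of Pgam1 on another chromosome was left out.

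Members and lists were chosen with earlier results of these data known. Named genes were all member rows, the called genes of each list (up to 6), its 2 others with the smallest p, and the 5 most like Pfkfb3. Others named were chosen after their values were seen. Further marker lists (erythroid, pancreas, skeletal muscle, adipose) had median differences of 0.39, -0.34, -0.27 and -0.18, with 0 genes called by limma. The number of arrays limits the precision, and 16 alternatives were tried.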

Additional observations from a re-analysis of the deposited data

How the results depend on the processing

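The Pfkfb3 rows kept their direction in every alternative that tested them and missed the threshold in 1, without LPS replicates 1 and 2 together. That setting left 1 LPS array and gave 0 higher and 0 lower over all rows, so 0 member rows and 0 and 0 list genes were called. Without LPS/GalN replicates 2 and 3 together, 26 rows were higher and 350 lower in all, and 0 list genes were higher and 1 lower. With each single array left out, 53 to 804 rows were higher, 831 to 1358 lower, 3 to 5 member rows lower, and 0 to 2 list genes higher and 1 to 5 lower. Rows higher numbered 1093 with trend and robust fitting (list genes 5 higher, 9 lower), 613 with 32 added before log2 and 758 in the deposited value table. Arrays centred on the median gave 1 list gene higher. With 1 row per gene, fewer rows were tested, and 1 member row was lower and 1 list gene higher.

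Same-numbered arrays did not deviate together (r = 0.0019, -0.0043 and 0.020). No pairing by number was seen, although so few arrays cannot exclude one. With the replicate block 144 rows were higher, 0 list genes were higher and the 3 Pfkfb3 rows remained past the threshold.

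Uncalled rows changed sign in places, and the cause was not tested. Without LPS replicates 1 and 2, the differences were 0.023 (Pfkfb2 BC018418) and 0.188, 0.649 and 0.493 (Pfkfb4). The Pfkfb4 values in that fit lay near the random probes. Without LPS/GalN replicates 2 and 3, that of Hk1 AK165237 was 0.063. With single arrays left out, Pfkfb2 ranged from -0.398 to 0.156 (AK029659) and -0.672 to 0.057 (BC018418), and Pklr minus Pkm2 from -0.058 to 0.874.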

Other observations

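The surroundings of Pfkfb3 held another gene that fell. Within 250000 bases of the Pfkfb3 rows on mm9 chromosome 2 lay 22 other rows, with the homolog rows at the Pfkfb3 locus left out. Of the 22, 7 were lower past the threshold (limma, adjusted p under 0.05), against 3.13% of all rows, and 0 higher, against 0.654%. Rows of a gene are not independent. All 6 rows of the interleukin 15 receptor alpha chain, a subunit that presents the cytokine to lymphocytes, fell, by 2.64 to 3.31 in log2, and passed without each single array. The brightest (AY219715, chr2:11627474-11655589) fell by 3.03 ± 0.33 (limma adjusted p = 0.0024). Of the other 16 rows, LOC100040733 (chr2:11268149-11276561) fell by 1.80 ± 0.21 (limma adjusted p = 0.00324). The rows of rna binding motif protein 17 (-0.29 ± 0.28) and interleukin 2 receptor, alpha chain (0.28 ± 0.22 and 0.86 ± 0.60), which lie between, did not pass. These genes were chosen after their values were seen, and no test of position was made.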
